A study of Mus musculus with 14 samples.

Results

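The genes described here are 10 mouse genes of bile acid synthesis, conjugation and uptake: Cyp7a1, Cyp8b1, Cyp27a1, Hsd3b7, Akr1d1, Amacr, Scp2, Slc27a5, Baat and Slc10a1. They are named by symbol for their known roles, with no threshold on a measured value, and are 10 of the 51912 gene rows in each table of counts. All 10 passed the filter on low counts, which left 14638 genes for testing. The left liver lobe of 14 untreated mice aged 20 weeks was sampled, and its total RNA was sequenced. Of these, 5 were Tet2 fl/fl vav cre+ mice with spontaneous autoimmune hepatitis (AIH), and 5 were Tet2 fl/fl vav cre+ mice without symptoms (asymptomatic). The other 4 were healthy Tet2 fl/fl cre- littermates (control), so that floxed Tet2 was carried by all 3 groups. AIH and asymptomatic mice share a genotype and treatment and were told apart by phenotype alone. The Vav promoter drives cre in blood-forming cells and their progeny, while the 10 genes are chiefly genes of hepatocytes.

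Bile acids are made from cholesterol in hepatocytes, and their synthesis is a main way in which cholesterol leaves the body. A classic route opens with Cyp7a1 and an alternative route with Cyp27a1. The steroid ring is then remodelled, the side chain is shortened in peroxisomes, and the acid is joined to taurine or glycine before export into bile. Most of the pool returns from the gut in portal blood and is taken up again through Slc10a1, while the bile acid receptor FXR (Nr1h4) restrains Cyp7a1 and Cyp8b1.

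Library totals ran from 15.97 to 18.92 M counts over genes (M, mega), and values below are counts per M counts of a library (CPM), scaled by TMM, edgeR's library scaling. Tet2 held 7.34 to 15.4 CPM in AIH livers, 4.77 to 9.23 in asymptomatic livers and 8.53 to 11.98 in control livers; blood cells give a minority of liver RNA, so this checks the labels weakly. The labels give no sex. Xist and 4 Y-linked genes placed 1 male (AIH 4) and 4 females in AIH, 5 males in the asymptomatic group, and 2 males and 2 females (control 2 and control 3) in control. All 10 leukocyte markers were called higher in AIH livers against either other group, with summed levels of 1015 to 2130 CPM in AIH, 231 to 297 in asymptomatic and 198 to 420 in control livers. Of 12 hepatocyte markers 11 were matched, and their sum was 108939 to 206363 CPM in AIH, 145308 to 171792 in asymptomatic and 134779 to 188055 in control livers. Pericentral hepatocyte markers summed to 8137 to 9421 CPM in AIH, below 10539 to 14476 in asymptomatic and 12043 to 16223 in control livers. In AIH against control 2 of 8 (Cyp2e1 and Oat) were called lower, and the fold changes of 6 lay below 0. In AIH against asymptomatic 1 of 8 was called lower, and the fold changes of 5 lay below 0. Periportal markers summed to 3002 to 5333 CPM in AIH, 4004 to 5272 in asymptomatic and 4731 to 6168 in control livers. In AIH against control 1 of 8 (Ctsc) was called, as higher, while the fold changes of 6 lay below 0. Of 7 bile duct markers 1 (Spp1) was called higher in AIH against control, and the fold changes of 2 lay below 0. Their sum was 1040 CPM in AIH 3, 199 to 303 in the other AIH livers and 198 to 273 in control livers. Of 9 endothelial and stellate markers 4 were called higher in AIH against control. No marker of these lists was at 0 in any group. In whole liver, fewer cells of a type and less RNA per cell cannot be told apart, and the part of these marker differences in the results below was not tested apart from a scaling to hepatocyte markers.

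In TMM-scaled CPM of whole liver, Baat (conjugation) and Slc10a1 (uptake) were lower in AIH than in control or asymptomatic livers. Slc27a5, with which conjugation begins, was not called in either comparison (edgeR adjusted p = 0.165 and 0.144). In AIH against control, edgeR's quasi-likelihood test with Benjamini-Hochberg adjustment over all 14638 genes called 4 of the 10 genes lower (Baat, Slc10a1, Amacr and Hsd3b7) and 0 higher. Hsd3b7 is among the 4 although its exons overlap other gene models and its counts are not taken as its level. The number called was 2 to 5 with 1 library left out and 0 with scaling to hepatocyte markers. Among all genes tested 21.7% were called, 6.08% as lower. The median log2 fold change of the 10 genes was -0.69, against -0.013 over all genes, and all 10 lay below 0. For 3 of them (Baat, Slc10a1 and Amacr) no AIH library reached a control library, which held for 6.61% of all genes. In AIH against asymptomatic, 4 of 10 were lower (Baat, Slc10a1, Scp2 and Hsd3b7) and 0 higher, where 29.8% of all genes were called and 10.7% were lower. The median there was -0.55, against -0.032 over all genes, and 2 of the 10 (Baat and Slc10a1) did not overlap, as did 4.65% of all genes.

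In asymptomatic against control 0 of the 10 genes were called, and edgeR called 0.0% of all genes. At an unadjusted p under 0.05 the test gave 0 of the 10 genes and 1542 of all genes, while DESeq2 called 118 genes and limma-voom 1299, with 0 of the 10 among either. Log2 fold changes of the 10 genes ran from -0.78 (Cyp8b1) to 0.52 (Scp2), with a median of -0.086. The comparisons share libraries, so their fold changes are set side by side and not counted as separate support.

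**Figure D1:**
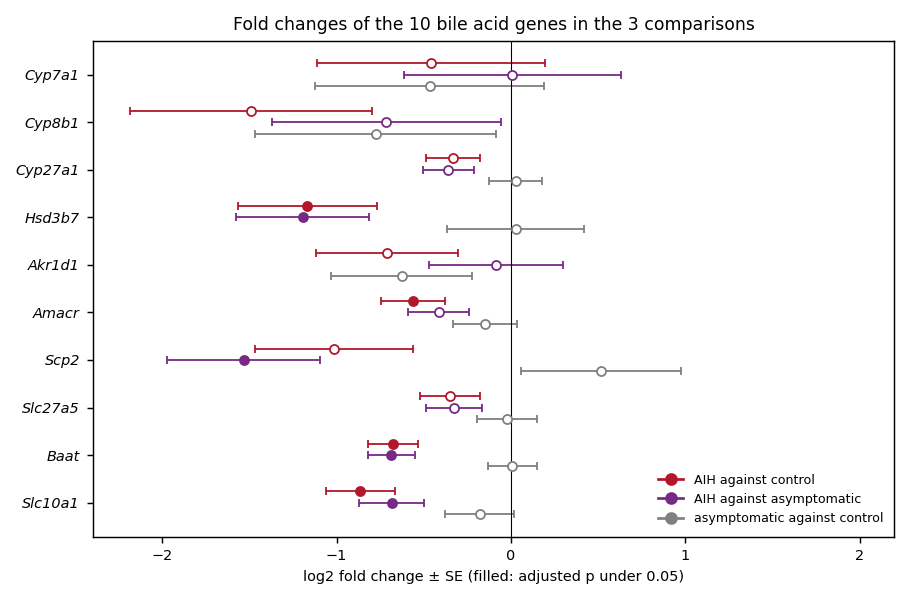
Log2 fold changes (x axis) of the 10 genes, with bars of 1 standard error, for AIH against control (red), AIH against asymptomatic (purple) and asymptomatic against control (grey); filled points have an adjusted p under 0.05. Baat and Slc10a1 are filled in both AIH comparisons, and no grey point is filled.

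Of the early hydroxylases, Cyp7a1 and Cyp8b1 varied widely within every group, while Cyp27a1 had the smallest ratio of highest to lowest library of the 10 genes. Cyp7a1, the rate-limiting 7-alpha-hydroxylase of the classic route (ENSMUSG00000028240, GRCm38 chromosome 4, 6265612 to 6275633, minus strand), had 401, 42.6, 245, 81.0 and 447 CPM in AIH 1 to 5. It had 197, 191, 146, 228 and 449 CPM in asymptomatic 1 to 5, and 549.9, 249, 479.8 and 57.9 CPM in control 1 to 4. Low and high livers occurred in AIH and in control, and the 3 groups overlapped over most of their range. Its log2 fold change was -0.46 ± 0.66 (SE) in AIH against control (edgeR adjusted p = 0.667), 0.0077 ± 0.62 in AIH against asymptomatic livers (adjusted p = 0.994) and -0.47 ± 0.66 in asymptomatic against control (adjusted p = 0.831). Within control alone the highest library held 9.50 times the lowest, and none of the fitted differences passed. The size of difference that these group sizes could detect was not computed.

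Cyp8b1, the 12-alpha-hydroxylase that sets the share of cholic acid (ENSMUSG00000050445, chromosome 9, 121914356 to 121916305, minus strand), had 168, 31.5, 142, 392 and 197 CPM in AIH 1 to 5. Asymptomatic 1 to 5 had 209, 766, 382, 73.5 and 96.6 CPM, and control 1 to 4 had 448, 595, 194 and 856 CPM. The AIH mean of 186 ± 131 CPM (SD, n = 5) lay below the control mean of 523 ± 277 (SD, n = 4), but AIH 4 and AIH 5 exceeded control 3. On the log2 scale AIH differed from control by -1.49 ± 0.70 (edgeR adjusted p = 0.146) and from asymptomatic by -0.71 ± 0.66 (adjusted p = 0.439). It was the largest fitted difference of the 10 genes in AIH against control and also the one with the largest standard error, and it did not pass the test.

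Cyp27a1, the mitochondrial sterol 27-hydroxylase of the alternative route and of side-chain oxidation (ENSMUSG00000026170, chromosome 1, 74713574 to 74737892, plus strand), was steadier. It had 350.1, 305, 314, 452 and 332 CPM in AIH 1 to 5, against 504, 446, 474, 407 and 419 CPM in asymptomatic 1 to 5 and 509.5, 409, 393 and 454 CPM in control 1 to 4. Of the AIH libraries, 4 lay below every library of the other groups, and the male AIH 4 lay among them. AIH differed from control by -0.33 ± 0.15 on the log2 scale (edgeR adjusted p = 0.142) and from asymptomatic by -0.36 ± 0.15 (adjusted p = 0.0757). Without AIH 4 both comparisons passed, at -0.44 (adjusted p = 0.0411) and -0.46 (adjusted p = 0.0207). AIH 4 is the only male of its group, so without it all AIH livers are female and all asymptomatic livers male. Sex and group cannot then be told apart in that comparison. Over all groups, males held 407 to 509.5 CPM and females 305 to 409. With group in the model, male minus female was 0.36 ± 0.14 on the log2 scale (unadjusted p = 0.0230, edgeR adjusted p = 0.401). Apart from leaving 1 library out, alternative settings gave -0.42 to -0.00038 against asymptomatic.

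**Figure D2:**
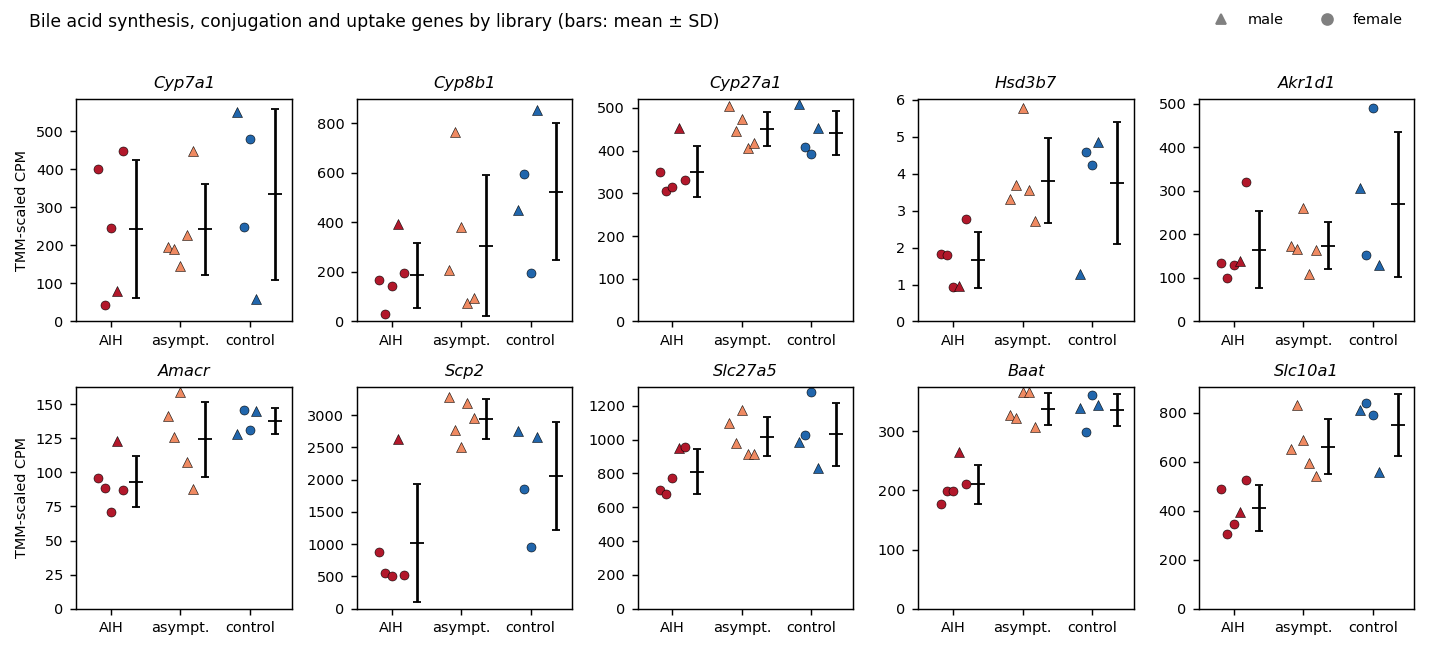
TMM-scaled CPM (y axis, from 0) of each of the 10 genes in AIH (red), asymptomatic (orange) and control (blue) libraries; triangles are males, circles females, and the bar beside each group is its mean ± SD. Baat and Slc10a1 separate AIH from both other groups, Cyp7a1 and Cyp8b1 spread widely in each group, and Scp2 of AIH 4 sits with the male libraries of the other groups.

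Cyp7a1 and Cyp8b1 are known to follow the time of day in mouse liver, and the labels give no hour of collection. The log2 ratio of Dbp, a clock output factor, to Arntl, a core clock factor, was 2.63, 5.76, 4.19, -1.86 and 2.92 in AIH 1 to 5. It was 5.74, 1.41, 5.93, 6.13 and 4.70 in asymptomatic 1 to 5, and 7.63, -4.55, 6.84 and -2.87 in control 1 to 4. The 4 libraries with the lowest ratios (control 2, control 4, AIH 4 and asymptomatic 2) had 595, 856, 392 and 766 CPM of Cyp8b1. Each was the highest or second highest of its own group, and the 2 controls with high ratios had the lower Cyp8b1.

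With the group means in the model, Cyp8b1 fell by 0.18 ± 0.064 on the log2 scale per unit of the ratio (unadjusted p = 0.0136, edgeR adjusted p = 0.299). Akr1d1 had a slope of 0.094 ± 0.043 (adjusted p = 0.451) and Cyp7a1 one of 0.12 ± 0.076 (adjusted p = 0.582). None of the 10 genes passed for this term, as against 0.594% of all genes. The test of the slope was added after the values had been seen. With the ratio as a term in the group comparison, Baat, Slc10a1 and Amacr stayed lower in AIH against control, and Hsd3b7 had a fold change of -1.08 (edgeR adjusted p = 0.0801), against -1.17 (adjusted p = 0.0491) without the term.

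**Figure D3:**
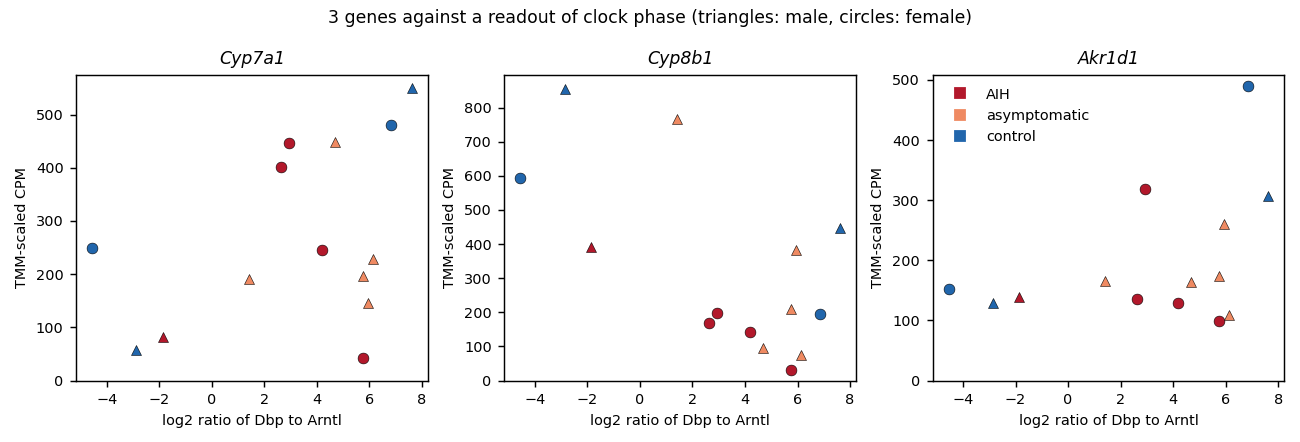
TMM-scaled CPM (y axis) of Cyp7a1, Cyp8b1 and Akr1d1 against the log2 ratio of Dbp to Arntl (x axis) in the 14 libraries, colored by group, with triangles for males and circles for females. The 4 libraries at the left (ratios of -4.55 to 1.41) are among the highest of their groups for Cyp8b1.

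Promoter sequence was at hand for 6 of the 10 genes, from RefSeq's annotation of GRCm38.p6. The 250 bases before the start are shown for 3: Cyp8b1 and Akr1d1, whose levels had the steepest relation to the clock readout for their error, and Slc10a1, which was lower in AIH. They are Cyp8b1 (chr9:121916306-121916555, minus strand), Akr1d1 (chr6:37529923-37530172, plus strand) and Slc10a1 (chr12:80968706-80968955, minus strand), each 5′ to 3′ along the gene, with motif matches in capitals.
Cyp8b1: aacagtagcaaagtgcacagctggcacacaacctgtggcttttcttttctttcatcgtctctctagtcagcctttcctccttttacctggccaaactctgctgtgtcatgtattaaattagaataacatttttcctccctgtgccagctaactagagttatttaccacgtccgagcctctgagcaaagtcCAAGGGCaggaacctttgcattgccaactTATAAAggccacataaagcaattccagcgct
Akr1d1: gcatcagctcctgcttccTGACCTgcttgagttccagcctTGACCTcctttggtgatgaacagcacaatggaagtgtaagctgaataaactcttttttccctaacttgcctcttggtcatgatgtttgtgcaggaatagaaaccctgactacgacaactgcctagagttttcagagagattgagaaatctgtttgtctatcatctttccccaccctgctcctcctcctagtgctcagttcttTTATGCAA
Slc10a1: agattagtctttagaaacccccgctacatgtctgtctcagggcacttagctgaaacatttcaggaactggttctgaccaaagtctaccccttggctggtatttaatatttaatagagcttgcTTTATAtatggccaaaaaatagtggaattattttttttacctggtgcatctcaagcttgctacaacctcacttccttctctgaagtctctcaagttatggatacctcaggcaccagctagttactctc
Both strands were searched for 4 motifs: the nuclear receptor half-site AGGTCA, the LRH-1 (Nr5a2) core CAAGGNC, the D-box of Dbp and its relatives TTATGNAA, and the TATA box TATAAA. In Cyp8b1 the capitals mark CAAGGGC, bases -60 to -54 from the start, and TATAAA, bases -31 to -26. In Akr1d1 they mark TGACCT, the half-site on the other strand, at -232 to -227 and at -210 to -205, and the D-box match TTATGCAA at -8 to -1. In Slc10a1 they mark TTTATA, the TATA letters on the other strand, at -128 to -123. RefSeq's table holds another start of Slc10a1, whose window (chr12:80968080-80968329, minus strand) is not shown and holds AGGTCA at -87 to -82. Among 32851 promoter windows of this length, 14.02% hold AGGTCA, 15.03% CAAGGNC, 3.07% TTATGNAA and 12.4% TATAAA on either strand. Matches to TTATGNAA are thus less common than matches to the other motifs. The window of Cyp27a1, not shown, also holds a match, TTATGAAA at -60 to -53. Cyp27a1 had a slope of -0.0095 ± 0.018 on the Dbp to Arntl ratio (edgeR adjusted p = 0.876). The Cyp8b1 window holds no match to TTATGNAA, so the motif did not go with the slope in these windows. The matches are a description of letters and not of binding.

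Of the ring-modifying enzymes, Akr1d1, the 5-beta-reductase (ENSMUSG00000038641, chromosome 6, 37530173 to 37568815, plus strand), had 135, 99.5, 129, 139.7 and 319 CPM in AIH 1 to 5. Asymptomatic 1 to 5 had 174, 165, 261, 109 and 163 CPM, and control 1 to 4 had 307, 153, 489.5 and 128 CPM. The groups overlapped, and AIH 5 and control 3 stood above the rest of their groups. Its log2 fold change was -0.71 ± 0.41 in AIH against control (edgeR adjusted p = 0.236) and -0.08 ± 0.38 in AIH against asymptomatic livers (adjusted p = 0.891).

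Hsd3b7, the 3-beta-hydroxysteroid dehydrogenase of the ring (ENSMUSG00000042289, chromosome 7, 127800604 to 127803802, plus strand), was counted at almost nothing: 733 counts in all 14 libraries together. Of its 2769 exon bases, 2746 are shared in the GENCODE annotation with a read-through model on the same strand (Gm49388, 0 counts) and a gene model on the other strand (9430064I24Rik, 141 counts). HTSeq, named in the submitters' processing notes, by default sets aside reads that fall on more than 1 gene, so the value is not taken as the level of Hsd3b7. It was 1.82, 1.80, 0.932, 0.951 and 2.78 CPM in AIH 1 to 5, against 3.32, 3.71, 5.77, 3.55 and 2.73 CPM in asymptomatic 1 to 5 and 1.29, 4.58, 4.25 and 4.86 CPM in control 1 to 4. Fitted log2 fold changes were -1.17 ± 0.40 in AIH against control (edgeR adjusted p = 0.0491) and -1.20 ± 0.38 in AIH against asymptomatic livers (adjusted p = 0.0293). With each library left out in turn the fold change against control ranged from -1.47 to -1.02, and the call held without control 1 or AIH 5 and in none of the other 7 fits.

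The peroxisomal steps that shorten the side chain are represented by Amacr and Scp2. Amacr, the racemase that turns the side chain into the form that can be oxidized (ENSMUSG00000022244, chromosome 15, 10981756 to 10996626, plus strand), had 96.0, 88.7, 71.2, 123 and 87.3 CPM in AIH 1 to 5. Asymptomatic 1 to 5 had 141, 126, 159, 107 and 87.6 CPM, and control 1 to 4 had 128, 146, 131 and 145 CPM. Every AIH library lay below every control library, while asymptomatic 4 and asymptomatic 5 lay within the AIH range. For Amacr the log2 fold change was -0.56 ± 0.18 in AIH against control (edgeR adjusted p = 0.0414) and -0.41 ± 0.18 in AIH against asymptomatic livers (adjusted p = 0.0885). The call against control is marginal: it ended with sex as a term (-0.51, adjusted p = 0.0756), and with 1 library left out at a time it held only without AIH 4 (adjusted p = 0.0146).

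Scp2 (ENSMUSG00000028603, chromosome 4, 108043839 to 108144998, minus strand) encodes both the peroxisomal thiolase that makes the last side-chain cut and a sterol carrier protein, and the counts do not separate them. It had 873, 560.3, 502, 2628 and 522 CPM in AIH 1 to 5. It had 3283, 2771, 2507, 3190.1 and 2957 CPM in asymptomatic 1 to 5, and 2754, 1853, 954 and 2667 CPM in control 1 to 4. AIH 4, the only male of its group, was level with the asymptomatic livers, and the 2 female controls were the lower ones of theirs. The log2 fold change was -1.53 ± 0.44 in AIH against asymptomatic (edgeR adjusted p = 0.0173) and -1.02 ± 0.45 in AIH against control (adjusted p = 0.129).

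Across groups, the 8 male libraries held 2507 to 3283 CPM of Scp2 and the 6 female libraries 502 to 1853, with no overlap. With group in the model the log2 difference of male minus female was 1.50 ± 0.26 (edgeR adjusted p = 0.00909), and Scp2 was the only one of the 10 genes called for sex, as were 1.01% of all genes. This test of the sex term was added after the values had been seen. With sex as a term, AIH against asymptomatic was -0.62 (adjusted p = 0.257) and AIH against control -0.80 (adjusted p = 0.0460). Among females alone, all 4 AIH libraries (502 to 873 CPM) lay below both control females (954 and 1853 CPM). All asymptomatic mice were male and 4 of 5 AIH mice female, so sex and group are largely but not wholly confounded in that comparison, and the fit with sex as a term separates them through AIH 4 and the controls. The male AIH 4 lay within the asymptomatic range.

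**Figure D4:**
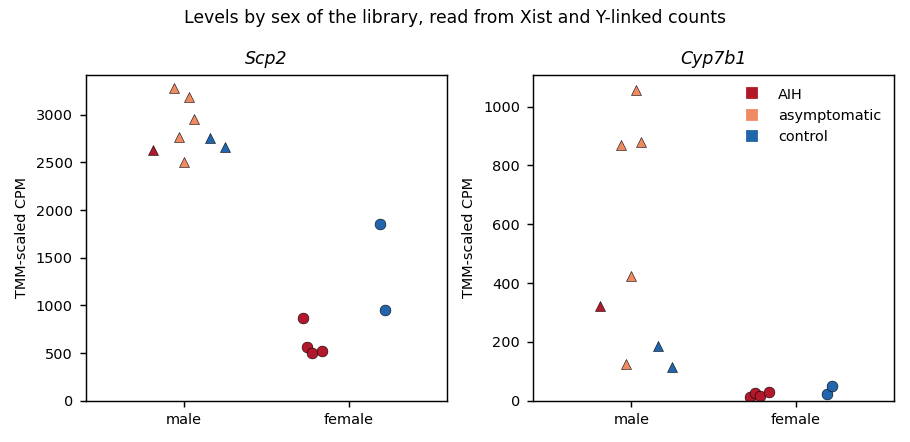
TMM-scaled CPM (y axis, from 0) of Scp2 and of Cyp7b1 in 8 male and 6 female libraries, colored by group. For both genes every male library lies above every female library, and for Scp2 the female AIH libraries lie below the female controls.

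Conjugation begins with Slc27a5, the bile acid-CoA ligase (ENSMUSG00000030382, chromosome 7, 12988346 to 12998192, minus strand). It had 699, 676, 769.9, 952 and 953 CPM in AIH 1 to 5, against 1097, 977, 1173, 917 and 914 CPM in asymptomatic 1 to 5 and 986, 1026, 1283 and 834 CPM in control 1 to 4. AIH 4 and AIH 5 lay within the range of the other groups. Fitted log2 fold changes were -0.35 ± 0.17 in AIH against control (edgeR adjusted p = 0.165) and -0.33 ± 0.16 in AIH against asymptomatic livers (adjusted p = 0.144).

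Baat, the enzyme that joins the activated bile acid to taurine or glycine (ENSMUSG00000039653, chromosome 4, 49489422 to 49506557, minus strand), had 178, 199, 198, 265 and 210.5 CPM in AIH 1 to 5. It had 327, 323, 366, 366 and 307 CPM in asymptomatic 1 to 5, and 339, 299, 361 and 344 CPM in control 1 to 4. Every AIH liver lay below every liver of the other groups, which coincided with each other. Means were 210.1 ± 32.8 CPM in AIH, 338 ± 27.0 in asymptomatic (SD, n = 5 each) and 336 ± 26.6 in control livers (SD, n = 4). Fitted log2 fold changes were -0.68 ± 0.14 in AIH against control (edgeR adjusted p = 0.00373) and -0.69 ± 0.14 in AIH against asymptomatic livers (adjusted p = 0.00184). In asymptomatic against control it was 0.01 ± 0.14 (adjusted p = 0.985). The calls held with each library left out in turn.

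Slc10a1, the sodium-dependent transporter NTCP that takes conjugated bile acids up from portal blood (ENSMUSG00000021135, chromosome 12, 80953183 to 80968705, minus strand), had 489.9, 304, 344, 397 and 525 CPM in AIH 1 to 5. It had 650.3, 834, 688, 597 and 542 CPM in asymptomatic 1 to 5, and 811, 839, 790.1 and 560.2 CPM in control 1 to 4. Again no AIH library reached a library of the other groups, although AIH 5 came close to asymptomatic 5 and control 4. The log2 fold change was -0.86 ± 0.20 in AIH against control (edgeR adjusted p = 0.00631), -0.68 ± 0.19 in AIH against asymptomatic livers (adjusted p = 0.0140) and -0.18 ± 0.20 in asymptomatic against control (adjusted p = 0.774). The calls of the AIH comparisons held with each library left out in turn.

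For Baat and Slc10a1 the direction was the same within each sex, while the tests within a sex, with few animals, did not pass. Among females, 4 AIH against 2 control, the log2 fold changes were -0.77 (edgeR adjusted p = 0.0838) and -0.99 (adjusted p = 0.0906). Among males, where AIH 4 is a lone library whose spread was taken to be that of the other groups, they were -0.39 (adjusted p = 0.583) and -0.81 (adjusted p = 0.351) against control. With sex as a term both remained called against control, whereas against asymptomatic they were -0.51 (adjusted p = 0.0847) and -0.82 (adjusted p = 0.0672). Scaled to the 11 hepatocyte markers in place of all genes, the values against control were -0.53 (adjusted p = 0.167) and -0.67 (adjusted p = 0.128), with the median of all genes moved to 0.14.

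Per length of annotated exon, Scp2 had the highest mean over all libraries at 575 CPM per kilobase, followed by Slc27a5 at 388 and Slc10a1 at 272. Cyp27a1 (189.6, range 140.3 to 234), Cyp8b1 (167) and Baat (150.3, range 91.5 to 189) came next and overlapped, and Akr1d1 (68.5), Cyp7a1 (64.4) and Amacr (44.9) overlapped below them. Libraries of neighbours in this order overlapped throughout, and Hsd3b7 has no level to place. The order of group means differed between groups. Slc27a5 (332) was above Scp2 (292) in AIH, whereas Scp2 was above Slc27a5 in asymptomatic (846 and 417) and in control livers (591 and 423). Cyp8b1 was below Cyp27a1 in AIH (95.5 and 161) and in asymptomatic livers (157 and 207) and above it in control livers (268 and 203). The highest library held 27.2 times the lowest for Cyp8b1 and 12.9 times for Cyp7a1, but 1.67 times for Cyp27a1 and 2.06 times for Baat. AIH 2, with the most leukocyte marker RNA, was the lowest library for 6 of the 10 genes.

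The genes most alike in rank over the 14 libraries were taken for 3 of the 10. For Slc10a1 they were Got2 (Spearman's rho 0.96), the mitochondrial aspartate aminotransferase, Myo5b (0.93) and Faah (0.92). For Baat they were Pgrmc1 (0.92), Cop1 (0.92) and Apeh (0.91), and for Cyp7a1 Dmd (0.84), Cttn (0.81) and Lmo7 (0.79). These are descriptions over libraries that share group, sex and scaling.

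Other genes of the pathway were taken from a list of 12 further synthesis genes, 11 of them tested. In AIH against control 3 were lower (Cyp46a1, Hsd17b4 and Slc27a2) and 0 higher, and in AIH against asymptomatic 4 were lower (Cyp7b1, Hsd17b4, Slc27a2 and Fdx1) and 0 higher. Among all genes tested, 6.08% were called lower in the first comparison and 10.7% in the second. With 1 library left out in turn, the call against asymptomatic held in 10 of 10 fits for Slc27a2, 6 for Cyp7b1, 4 for Hsd17b4 and 2 for Fdx1, which was 0.23 with the unaligned share as a term. The calls against control held in all 9 such fits for each of the 3 genes. On the Dbp to Arntl ratio, with group in the model, Hsd17b4 had a slope of -0.090 ± 0.020 (edgeR adjusted p = 0.0626). That of Slc27a2 was -0.088 ± 0.020 (adjusted p = 0.0713), so neither passed. Hsd17b4, the peroxisomal bifunctional enzyme that acts before the Scp2 thiolase, had 342, 232, 259, 429 and 285 CPM in AIH 1 to 5, against 507, 823, 442, 438 and 402 CPM in asymptomatic 1 to 5 and 583, 874, 449 and 900.5 CPM in control 1 to 4. Its log2 fold change was -1.18 ± 0.27 in AIH against control (edgeR adjusted p = 0.00586). Slc27a2, a very long-chain acyl-CoA synthetase that can also activate bile acid precursors, averaged 689 ± 197 CPM in AIH and 1797 ± 538 in control livers, and fell by 1.38 ± 0.27 on the log2 scale (edgeR adjusted p = 0.00198).

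Cyp7b1, the oxysterol 7-alpha-hydroxylase of the alternative route, had 12.3, 27.2, 15.1, 321 and 30.8 CPM in AIH 1 to 5. It had 871, 124, 423, 1057 and 879 CPM in asymptomatic 1 to 5, and 187, 21.6, 49.1 and 114 CPM in control 1 to 4. The 8 males held 114 to 1057 CPM and the 6 females 12.3 to 49.1, a log2 difference of male minus female of 2.99 ± 0.55 with group in the model (edgeR adjusted p = 0.0129). The log2 fold change of AIH against asymptomatic was -3.04 ± 0.94 (edgeR adjusted p = 0.0251), and with sex as a term the call ended (-1.74, adjusted p = 0.132).

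Of 11 other transport genes 9 were tested, since Slc51a had 0 counts and Slc51b too few. In AIH against control 4 were lower and 0 higher: Slco1b2 by 0.996 ± 0.21, Abcb4 by 1.24 ± 0.35, Abcc2 by 1.05 ± 0.28 and Abcc3 by 1.03 ± 0.25 (log2, edgeR adjusted p from 0.00345 to 0.0196). Among all genes tested, 6.08% were called lower in this comparison. Slco1b2, a basolateral organic anion carrier that takes up unconjugated bile acids, had 932, 713, 557, 1073 and 1042 CPM in AIH 1 to 5, against 1619, 1772, 1825, 1408 and 1209 CPM in asymptomatic 1 to 5 and 2038, 1567, 1767 and 1515 CPM in control 1 to 4. Slco1b2 was thus below both other groups in every AIH library, as Slc10a1 was. Such a gap held for 6.61% of all genes against control and for 4.65% against asymptomatic. Abcb4 exports phosphatidylcholine into bile, Abcc2 organic anions and conjugates into bile, and Abcc3 the same toward blood. With 1 library left out, the call of Abcb4 against control held in 6 of 9 fits. Those of Slco1b2, Abcc2 and Abcc3 held in all 9. Abcb4 was also called for the clock readout, with a slope of -0.12 ± 0.024 on the log2 scale per unit of the Dbp to Arntl ratio (edgeR adjusted p = 0.0402).

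Abcb11, the bile salt export pump of the canalicular membrane, had 348, 269, 175, 819 and 645 CPM in AIH 1 to 5. Asymptomatic 1 to 5 had 517, 478, 515, 505 and 487 CPM, and control 1 to 4 had 623, 541, 770.5 and 475 CPM. The AIH livers spread to both sides of the others, and the log2 fold change was -0.42 ± 0.34 in AIH against control (edgeR adjusted p = 0.425). Abcc4, a basolateral exporter, was the only transporter called higher, in AIH against asymptomatic (1.46 ± 0.34, edgeR adjusted p = 0.00550), at 6.64 to 11.6 CPM in AIH and 2.41 to 4.47 in asymptomatic livers. Control livers held 5.08 to 21.2 CPM, and AIH against control was not called (-0.33 ± 0.35, adjusted p = 0.543).

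**Figure D5:**
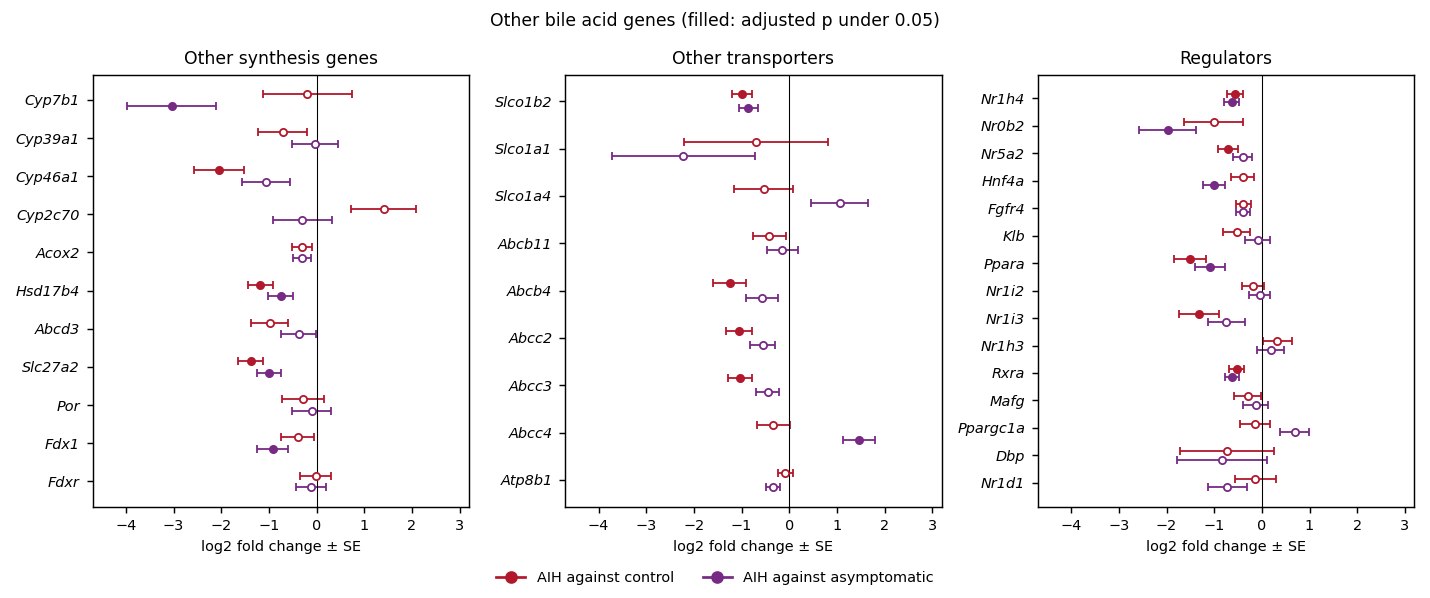
Log2 fold changes with bars of 1 standard error (x axis) for the tested genes of the other synthesis, transport and regulator lists, in AIH against control (red) and AIH against asymptomatic (purple); filled points have an adjusted p under 0.05. Filled points lie left of 0 except for Abcc4 in AIH against asymptomatic.

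Of 15 regulators, all tested, 5 were lower in AIH against control (Nr1h4, Nr5a2, Ppara, Nr1i3 and Rxra) and 0 higher. In AIH against asymptomatic 5 were lower (Nr1h4, Nr0b2, Hnf4a, Ppara and Rxra) and 0 higher. Among all genes tested, 6.08% were called lower against control and 10.7% against asymptomatic. Nr1h4, the bile acid receptor FXR, had 113, 79.3, 86.1, 61.0 and 83.1 CPM in AIH 1 to 5, against 131, 149.7, 129, 129 and 115 CPM in asymptomatic 1 to 5 and 143, 127, 105 and 127 CPM in control 1 to 4. All AIH livers lay below all asymptomatic livers, which held for 4.65% of all genes, and 4 of 5 below all controls. For Nr1h4 the log2 fold change was -0.57 ± 0.17 in AIH against control (edgeR adjusted p = 0.0240) and -0.63 ± 0.16 in AIH against asymptomatic livers (adjusted p = 0.00781).

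Nr0b2 (SHP), the repressor that FXR induces, had 2.35, 11.2, 0.758, 16.6 and 4.70 CPM in AIH 1 to 5. It had 23.3, 13.4, 37.7, 32.1 and 34.2 CPM in asymptomatic 1 to 5, and 9.35, 8.54, 18.7 and 20.9 CPM in control 1 to 4. Its log2 fold change was -1.98 ± 0.60 in AIH against asymptomatic (edgeR adjusted p = 0.0223) and -1.01 ± 0.61 in AIH against control (adjusted p = 0.266). Nr5a2 (LRH-1), an activator of Cyp8b1, averaged 57.6 ± 15.2 CPM in AIH and 93.9 ± 8.54 in control livers with no overlap (-0.71 ± 0.21, edgeR adjusted p = 0.0241). Among all genes, 6.61% were lower in AIH than in control with no overlap.

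Ppara, the fatty acid receptor, fell by 1.51 ± 0.33 in AIH against control (edgeR adjusted p = 0.00501) and Rxra, the partner of both FXR and Ppara, by 0.53 ± 0.15 (adjusted p = 0.0232). Nr1i3, the receptor CAR, had a log2 fold change of -1.32 ± 0.42 there (adjusted p = 0.0347), with overlapping groups. Hnf4a, a hepatocyte identity factor, was lower in AIH against asymptomatic (-1.01 ± 0.23). Against control it was -0.40 ± 0.24 (edgeR adjusted p = 0.257). With sex as a term, the calls of all 5 regulators against asymptomatic ended, at adjusted p from 0.0522 to 0.263. The fold changes in that fit were -1.08 for Hnf4a, -1.04 for Ppara, -0.73 for Nr1h4 and -0.66 for Rxra, about as large as without the term or larger, and -1.39 for Nr0b2, against -1.98 without it. Against control, the calls of Nr1h4 and Rxra held in 7 of 9 fits with 1 library left out, those of Nr5a2 and Nr1i3 in 6, and that of Ppara in 9.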

How the data were processed

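The authors deposited raw counts per Ensembl gene for 14 liver libraries. The submitters' processing notes name, with no order, HISAT2 2.1.0, HTSeq 0.9.0, cutadapt 1.12, FastQC 0.11.5, R 4.0 and edgeR, and the builds GRCh38 and GRCm38. The gene IDs are mouse. The annotation release and the strand setting are not given in the sources used here, so reads of overlapping genes on opposite strands cannot be told apart. Each file holds 51912 gene rows and 5 summary rows, which stayed out of library sizes. Unaligned reads made up 3.23% to 6.54% of a file's reads in AIH, 4.93% to 9.27% in asymptomatic and 4.17% to 4.89% in control libraries. This share therefore differs between groups and is partly confounded with them. Reads without a unique alignment made up 28.8% to 37.0%.

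Groups came from the labels' phenotype and genotype. Genes were filtered with filterByExpr, scaled by TMM and tested with edgeR 4.0.16 (quasi-likelihood F-test, two-sided, a mean per group, all 14 libraries in 1 fit). Adjustment followed Benjamini and Hochberg (BH) across all 14638 tested genes, and calls were made at 0.05. The standard error of a log2 fold change was derived from the F statistic. Each sample was taken as 1 mouse, which the labels do not state outright, so p-values measure the spread between samples. AIH libraries carry the highest library numbers, and if these give an order of preparation it cannot be told apart from AIH. No pair of libraries of 1 group agreed within sampling noise (lowest chi-square per gene 13.5). Symbols and positions were looked up in GENCODE (GRCm38), where 51719 gene IDs were found, and 91 of 92 list symbols matched. 1 regulator is not reported here.

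The named genes were the 10 genes, the called genes of 3 related lists, Nr1h4, Nr0b2, Cyp7b1, Abcb11, Slco1b2, Dbp and the ratio of Dbp to Arntl, and the 3 genes most alike in rank to Cyp7a1, Baat and Slc10a1. Genes and lists were chosen with earlier results of these data known. Alternatives were RLE factors, library totals alone, hepatocyte marker scaling, limma-voom with quality weights (limma 3.58.1), DESeq2 1.42.0, 2 other count filters, only the 2 groups compared, terms for sex, the Dbp to Arntl ratio and the unaligned share, each sex alone, and each library left out. The edgeR test was also run on simulated counts, with means taken from the control libraries and spread from the fit of these data. Figures were drawn with matplotlib 3.10.9.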

Additional observations from a re-analysis of the deposited data

Results flagged for a closer look

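In 3 of 30 sets of libraries (10 genes in 3 groups), 1 library lay further from its group than Dixon's 95% limit allows. Chance gives about 1 in 20 such sets. Scp2 in AIH 4 was 2628 CPM, where the nearest AIH library had 873 CPM. AIH 4 is the only male of its group and had the lowest Dbp to Arntl ratio of it. Akr1d1 in AIH 5 was 319 CPM, where the nearest had 139.7 CPM. Cyp7a1 in asymptomatic 5 was 449 CPM, where the nearest had 228 CPM. The causes were not tested.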

How the results depend on the processing

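Each of the 10 genes was counted once in each alternative setting. A call ended in 35 such cases of AIH against control and in 21 of AIH against asymptomatic. A direction turned in 2 and 21 cases, and in 30 of asymptomatic against control. Of the 10 genes, the number called in AIH against control was 4, but 2 with library totals alone and 0 with hepatocyte marker scaling, with females only and with males only; leaving out 1 library gave 2 to 5. In AIH against asymptomatic it was 4, but 2 with library totals alone, 1 with hepatocyte scaling, 1 with sex as a term, 0 with the unaligned share as a term and 0 with males only. Library totals moved the all-gene median (log2) to 0.14 against control and 0.17 against asymptomatic, and hepatocyte scaling moved it to 0.14 and 0.27. Of all genes, 839 were called in females only and 555 in males only against control, where 3174 were called over all libraries. Against asymptomatic, 4355 were called over all libraries, 1372 with sex as a term, 562 with the unaligned share as a term and 980 with males only. In asymptomatic against control the count was 0, against 118 with DESeq2 and 1299 with limma-voom, and 0 to 13 without 1 library. Fits on fewer libraries change the group sizes and, in some, the balance of the sexes, and these cannot be told apart here. Without AIH 4 the count against control rose to 3425 genes. The causes of the changes in these counts were not tested.

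Directions turned only for fold changes that were not called, Fdx1 excepted. In AIH against control Cyp7a1 was 0.21 with limma-voom, and Slc27a5 0.048 with males only. In AIH against asymptomatic Cyp7a1 was -0.018 with RLE factors, -0.051 with no count filter, -0.018 with DESeq2, -0.0081 with limma-voom, -0.79 with sex as a term and -1.59 with males only, and -0.33 to 0.35 without 1 library. Akr1d1 there was 0.13 with library totals, 0.27 with hepatocyte scaling, 0.025 with limma-voom and 0.13 with the Dbp to Arntl term, and -0.47 to 0.11 without 1 library. Cyp8b1 there was 0.22 with limma-voom, 0.023 with sex as a term and 0.35 with males only. Fdx1 there was 0.23 with the unaligned share as a term.

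In asymptomatic against control, library totals gave -0.025 for Cyp27a1, -0.033 for Hsd3b7 and -0.048 for Baat, and hepatocyte scaling -0.12, -0.091 and -0.15. With limma-voom Cyp7a1 was 0.22 and Hsd3b7 -0.076, and with only the 2 groups compared Baat was -0.0018. With sex as a term Cyp27a1 was -0.15, Scp2 -0.18, Slc27a5 0.0025 and Baat -0.11. With the unaligned share as a term Cyp27a1 was -0.17, Scp2 -0.37, Baat -0.18 and Slc10a1 0.060. With males only Cyp27a1 was -0.11, Slc27a5 0.15 and Baat -0.025. Without 1 library Cyp27a1 ran from -0.024 to 0.12, Hsd3b7 from -0.24 to 0.19, Slc27a5 from -0.097 to 0.10 and Baat from -0.028 to 0.047.

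No paired analysis was possible because the replicate numbers follow the order of deposit and tie no mice to each other.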
